A study of Mus musculus with 6 samples.

Results

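The clustered protocadherin locus of the mouse lies on chromosome 18 between positions 36900000 and 37850000 of build mm10 and holds the Pcdha, Pcdhb and Pcdhg gene clusters. Its members here are 1368 cytosine positions, chosen by coordinate alone, out of the 390208 rows of the deposited methylation table that could be used. Of these, 839 had a value in all 6 libraries. The assay was RRBS, in which bisulfite-treated restriction fragments rich in CpG are sequenced and unconverted cytosines are counted as methylated. The 6 libraries came from intestinal organoids, cultures of gut epithelium grown from primary cells, that all carry Apc Min, a mutant allele that cuts short the tumour suppressor Apc. Both groups are labelled as grown in organoid medium and kept in low-glutamine medium. The control group (3 biological replicates) had a control treatment, and the other group (3 biological replicates) was given DM-aKG. The title of the series names α-ketoglutarate, which TET dioxygenases consume when they act on methylated cytosine. The labels used here give no dose, time, animal or age. Methylation values carry no cell type markers, so the labelled tissue was not checked. Each value is an authors' percent, rounded to a whole number, and values from 1 to 39 do not occur in the rows used. A 0 is therefore either a level under 40% or no call, and was treated as no value. The read depth behind each value is unknown.

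Clustered protocadherins are cell-surface adhesion proteins known best from neurons, where each cell expresses its own mix of isoforms and like mixes recognise each other. In the Pcdha and Pcdhg clusters every isoform has its own promoter and its own large first exon, which is spliced to constant exons shared at the far end of the cluster, while the Pcdhb genes have a single exon each. DNA methylation of these promoters and first exons is known as part of isoform choice, through the methyltransferase Dnmt3b, the insulator protein Ctcf and the chromatin protein Smchd1. The locus is also known as a site of frequent methylation gain in several human tumours.

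The locus was methylated at an intermediate level in all 6 libraries. Over the 839 complete positions the mean levels were 76.0%, 78.9% and 78.7% in control replicates 1 to 3, and 79.2%, 80.01% and 80.3% with DM-aKG. Over the 12826 complete positions in the rest of chromosome 18 the same libraries ranged from 87.1% to 89.5%. The locus was thus lower in each of the 6 libraries, and the mean difference from the rest of the chromosome was -9.71 percentage points. The median site of the locus stood at 81.0%, with quartiles of 68.8% and 89.7%, against a median of 92.8% in the rest of the chromosome. Sites with a mean under 80% made up 47.3% of the locus and 19.3% of the rest of the chromosome, and sites at 95% or more made up 11.8% and 39.0%. Each level is an average over cells and alleles, and a mixture of methylated and unmethylated molecules cannot be told apart from partial methylation in every cell.

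**Figure D1:**
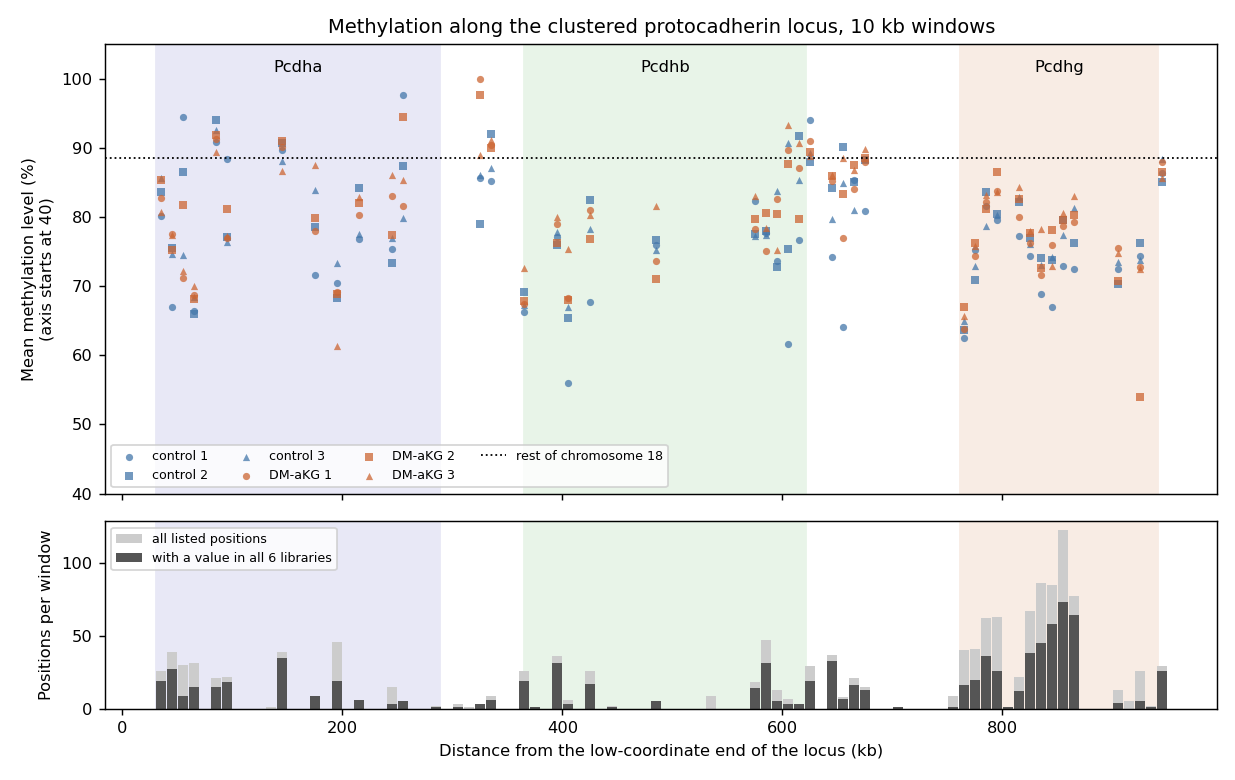
Mean methylation level (%, upper panel, axis from 40) of each library in 10 kb windows with at least 3 complete positions, and the number of listed and complete positions per window (lower panel), by distance in kb from the low-coordinate end of the locus. Shaded spans are the annotated clusters and the dotted line is the rest of chromosome 18; the windows had a median level of 79.6%, some libraries lie above the line in single windows, and 712 of the 1368 positions lie in Pcdhg.

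Positions were spread unevenly. They fell in 54 of the 95 windows of 10 kb, and 712 of the 1368 lay within the Pcdhg cluster, 292 within Pcdha and 228 within Pcdhb. Over its 181 complete positions Pcdha had 80.4% ± 0.297 among controls and 80.2% ± 1.25 among treated libraries (SD, n = 3 each). Pcdhb (152 positions) had 77.6% ± 0.858 and 79.0% ± 1.26, and Pcdhg (399 positions) had 75.3% ± 2.25 and 78.1% ± 0.873. Outside the clusters levels were higher. The stretch between Pcdhb and Pcdhg, where the genes Slc25a2, a mitochondrial carrier, and Taf7, a subunit of the basal transcription factor TFIID, begin, had 81.7% ± 4.31 and 85.9% ± 1.28 over 71 complete positions. Neither gene had a listed position from 1000 bases before to 1000 bases after its span. The 26 complete positions after the end of Pcdhg had 86.6% ± 1.71 and 86.7% ± 1.18. Inside the clusters, positions within a gene's start window, from 1000 bases before to 3000 bases after the annotated start, had 75.9% ± 1.52 and 77.8% ± 0.638 (642 positions). Other positions inside the clusters had 85.5% ± 1.06 and 86.0% ± 0.649 (90 positions).

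In Pcdhb and Pcdhg the low levels lay just after the annotated gene start. Over all 3 clusters together, complete positions in the first 500 bases after a gene start had a mean of 67.6% (119 positions), those from 500 to 1000 bases 76.9% (112 positions), and those from 1000 to 1500 bases 80.1% (199 positions). The first of these bins was the lowest of the 3 in every library: it stood between 65.5% and 69.6%, and the bin from 1000 to 1500 bases between 76.2% and 82.2%. Positions from 1500 to 2000 and from 2000 to 2500 bases had 79.3% and 78.8%. Before the starts the table lists 13 positions within 500 bases and 0 farther out, so the promoters themselves are nearly unseen. Around the starts of other protein-coding genes, complete positions had a mean of 84.5% in the first 500 bases and 84.8% from 1000 to 1500 bases. These positions too stood at 40% or more in every library, because a 0 was treated as no value. Positions below that level do not enter, so these means are not the level of gene starts in general. Over all 3 clusters together, the share of positions with a value in all 6 libraries also rose over the first bins. It was 39.7% in the first 500 bases and 80.2% from 1000 to 1500 bases, against 58.1% and 61.3% around other genes. Past 1500 bases the share fell to 64.3% and then 54.5%, where levels were 79.3% and 78.8%. The rise was seen in Pcdhb and Pcdhg. In Pcdha the share went down, from 55.3% in the first 500 bases to 34.8% from 500 to 1000 bases, and was lower still from 1000 to 1500 bases. Levels in Pcdha differed as well. Its first 500 bases had 73.4% over 42 positions, and the bin from 500 to 1000 bases was lower, with 64.8% over 8 positions. The few complete positions within 500 bases before a start were low as well, with 61.6% over 4 positions in all 3 clusters. The contrast between these bins was described and not tested, and the bins were set after values had been seen. It is larger when incompletely valued positions are let in, as given in the closing section.

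**Figure D2:**
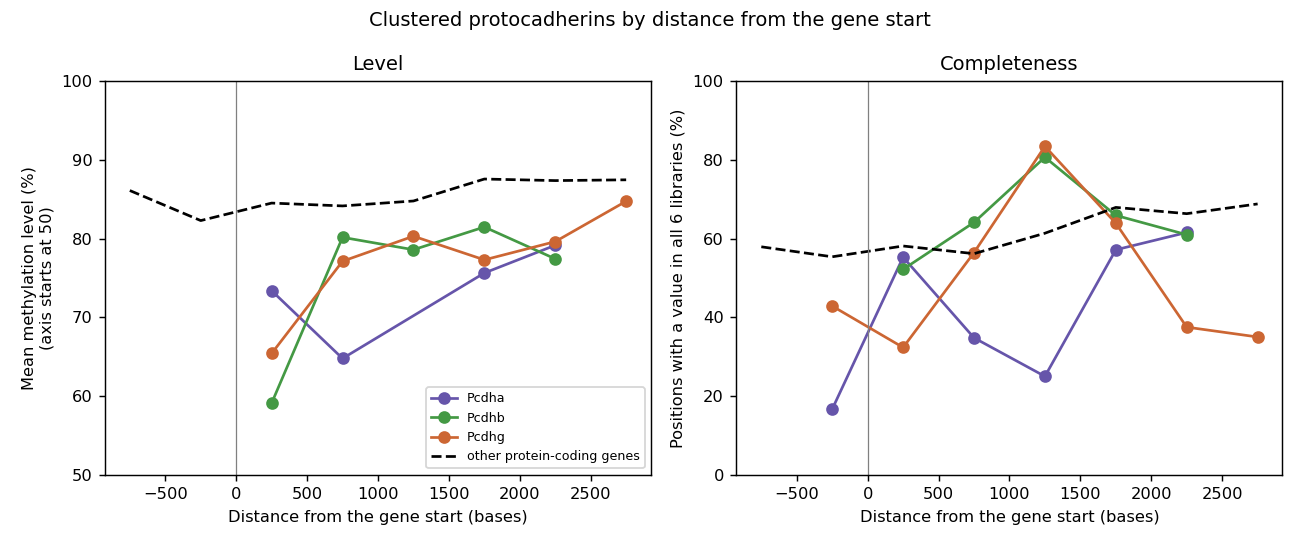
Left, mean methylation level (%, axis from 50) of complete positions in bins of 500 bases by distance from the gene start, for bins with at least 5 complete positions. Right, percent of listed positions with a value in all 6 libraries, for bins with at least 5 positions. In Pcdhb and Pcdhg the first 500 bases are lowest in level, at 59.1% and 65.4%. Complete positions of other protein-coding genes (dashed), all at 40% or more in every library, have mean levels above 80%.

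The step was also seen within single genes. In 12 genes at least 3 complete positions lay in the first 500 bases and at least 3 lay from 1000 to 3000 bases, and in 11 of the 12 the first part was lower, in 8 of them in each of the 6 libraries. The median difference was -12.5 points. In Pcdhb1, the first gene of the beta cluster, the first part had 53.2%, 49.2% and 49.7% in the controls and 47.5%, 47.3% and 62.8% with DM-aKG, against 77.2% to 85.5% in the later part. In Pcdhga11 the first part had 41.7%, 61.7% and 60.7% in the controls and 57.7%, 60.3% and 57.7% with DM-aKG, against 78.2% to 93.3% farther on. In Pcdhga1, the first isoform of the gamma cluster, the 2 parts had 60.7% and 81.8% over the 6 libraries. The exception, Pcdhga10, had 67.2% and 66.6%. Pcdhga10 and the genes of this paragraph were picked after their values were seen.

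The lowest runs of neighbouring positions lay just after or across a gene start, but not every run there was low. There were 57 runs of at least 5 complete positions no more than 100 bases apart, with mean levels from 51.6% to 91.6%. The lowest run lay at chr18:37265232-37265336, 234 to 338 bases into Pcdhb1, with 51.6% over 6 positions. The next lowest were at chr18:37755743-37755819, across the start of Pcdhga11 (59.4%), and at chr18:37674665-37674785, 330 to 450 bases into Pcdhga3 (60.3%). By contrast, a run 169 to 338 bases into Pcdha8 had 79.5% over 18 positions. One 40 to 129 bases into Pcdhga8 had 75.1% over 11 positions. The highest run, chr18:36980330-36980446, had 91.6% over 15 positions and lay within the span of the pseudogene Gm36858, outside any start window. The second highest, chr18:37686240-37686379, lay inside the start window of Pcdhga4, 1003 to 1142 bases after the start, with 90.2% over 9 positions. Another high run, chr18:37045756-37046230, lay between the starts of Pcdha12 and Pcdhac1 and had 89.3% over 34 positions. The naming rule covers only the lowest runs. The annotation used gives gene spans without exons, so exon and intron could not be assigned to these runs.

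Of the 58 clustered protocadherin genes, 41 had a listed position in the start window, 38 had a complete one, and 36 had at least 3 complete positions and were tested. A gene entered only where its positions stood at 40% or more in every library. The 17 genes with no listed position were Pcdha6, Pcdha7, Pcdha9, Pcdha10, Pcdha11 and Pcdha12, Pcdhb4, Pcdhb6, Pcdhb8, Pcdhb9, Pcdhb10, Pcdhb11, Pcdhb13, Pcdhb14, Pcdhb19 and Pcdhb21, and Pcdhgc4. The 5 with too few complete positions were Pcdhb7, Pcdhb12, Pcdhga2, Pcdhga5 and Pcdhga6. Pcdhga5 had 19 listed positions and Pcdhb12 had 9, with none complete. Among the 36, the median level was 77.4%, with a range of 64.9% to 90.1%, and the median over all 3987 genes tested was 87.7%. Levels under 80% were found in 25 of the 36 windows (69.4%) and in 23.1% of all genes. The complete positions lay at different distances from the start in different genes, and window levels were not adjusted for this. In the order of isoforms below, isoform and distance from the start therefore cannot be told apart. For comparison, 17 keratin genes, another family in tandem arrays, had a median of 86.2%. Of the Hox genes, the other arrays compared, only 1 was tested, with 67.5% over 4 positions. Across the 36 windows the control mean and the DM-aKG mean had a Pearson correlation of 0.817, which is across genes and not across replicates. Between single libraries it ranged from 0.412 to 0.928 over the 15 pairs.

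**Figure D3:**
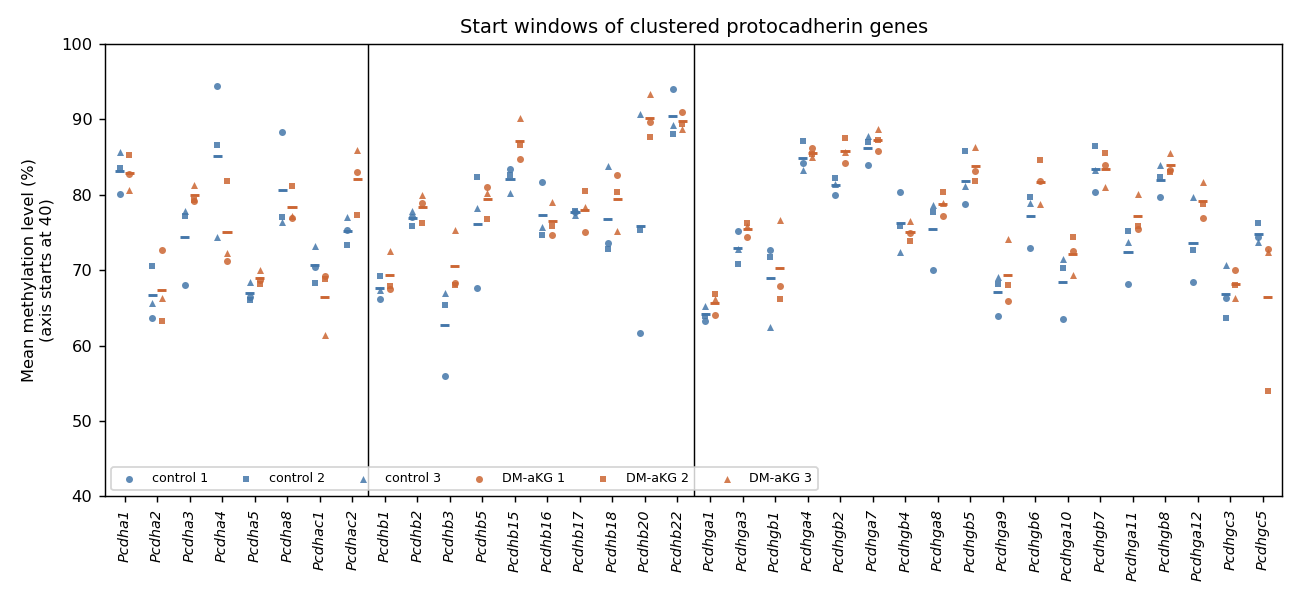
Mean methylation level (%, axis from 40) of each library in the start window of the 36 tested genes, in genome order, with points for libraries, short bars for group means and vertical lines between clusters. Window levels run from 64.9% to 90.1% and are not adjusted for where in a window the complete positions lie. Control replicate 1 is the lowest library in many Pcdhg windows.

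In the Pcdha cluster 8 of 14 isoforms were tested. The highest level was at Pcdha1, with 80.2%, 83.6% and 85.6% in the controls and 82.7%, 85.3% and 80.7% with DM-aKG over 19 positions. Pcdha4 and Pcdha8 followed, with means of 80.1% and 79.5% over the 6 libraries. The lowest levels were at Pcdha2 (67.0%, 7 positions), Pcdha5 (68.0%, 15 positions) and the C-type isoform Pcdhac1 (68.6%, 19 positions). C-type isoforms are known in neurons to be expressed without the random choice that governs the others. The neighbours in this order overlap: the SD between libraries of a group reached 4.82 points at Pcdha2. The other alpha C-type isoform, Pcdhac2, stood at 78.7% over only 3 complete positions of 15 listed.

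In the Pcdhb cluster 10 of 22 genes were tested. Pcdhb22, the last of the cluster, was highest, with 94.0%, 88.0% and 89.2% in the controls and 91.0%, 89.4% and 88.8% with DM-aKG over 19 positions. Pcdhb15 (84.6%) and Pcdhb20 (83.1%) came next, over 5 and 3 positions. The lowest were Pcdhb3 (66.7%, 3 positions), Pcdhb1 (68.4%, 19 positions) and Pcdhb16 (76.9%, 9 positions). Pcdhb1 stood between 66.2% and 72.6% in the 6 libraries and Pcdhb22 between 88.0% and 94.0%. These 2 genes did not overlap, but they were picked by level in the same libraries. Their positions also differ in distance from the start. At Pcdhb22, 15 of the 19 complete positions lay 1780 to 1930 bases after it. At Pcdhb1, 6 lay at 234 to 338 bases and 13 at 893 to 1114 bases.

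In the Pcdhg cluster 18 of 22 genes were tested. Pcdhga7, Pcdhga4 and Pcdhgb2 were highest, with means of 86.7%, 85.2% and 83.5% over 9, 28 and 22 positions. Pcdhga1 was lowest, with 63.3%, 63.9% and 65.2% in the controls and 64.1%, 66.8% and 66.2% with DM-aKG over 15 positions. Pcdhgc3, a C-type isoform known to be broadly expressed, had 67.5% over 3 complete positions of 12 listed. Pcdhga9 had 68.2% over 30. Every library had Pcdhga1 below 67% and Pcdhga4 above 83%, but both were picked by level in the same libraries. The remaining gamma C-type isoform with values, Pcdhgc5, stood at 70.6% over 5 complete positions of 29 listed. The 9 tested isoforms of the gamma A family had a median of 74.8% and the 7 of the gamma B family a median of 82.8%. The ranges, 64.9% to 86.7% and 69.6% to 83.5%, overlap. These levels were not adjusted for distance from the start. At Pcdhga1, 12 of the 15 complete positions lay 263 to 428 bases after the start. At Pcdhga7 all 9 lay 1347 to 1494 bases after it. At Pcdhga4, 17 of the 28 lay 716 to 824 bases and 9 lay 1003 to 1142 bases after it.

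The design compares DM-aKG with control, and no site, window or gene start of the locus passed the adjusted threshold of 0.05. Sites, 10 kb windows and start windows were each fitted with limma over the whole table. Over all rows used, 0 of 272327 sites, 1 of 23393 windows and 0 of 3987 gene starts passed, which are shares of 0%, 0.00427% and 0%. In the locus the smallest adjusted p by limma was 0.654 among 839 sites, 0.780 among 42 windows and 0.760 among 36 gene starts. At an unadjusted limma p under 0.05 there were 59 sites of the locus (7.03%, against 5.44% of all sites), 44 higher and 15 lower with DM-aKG. Over all sites 9644 were higher and 5159 lower. Of the 36 gene starts 3 reached this p (8.33%, against 6.45% of all genes). All 3 were higher with DM-aKG, as were 204 of the 257 such starts over all genes. The log2 odds fit also called 0 sites, windows and starts in the locus. Its smallest limma adjusted p there was 0.0529, at position 37543726, which had 100% in all 3 treated libraries. The 95% limits of a difference lay a median of 5.72 points to either side at the 36 gene starts, and 5.15 points over all genes.

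Levels in the locus leaned to the treated side, as they did over the table as a whole. Control libraries averaged 77.9% ± 1.61 over the locus and treated libraries 79.8% ± 0.579 (SD, n = 3 each). The groups differed by 1.95 points, with all 3 treated libraries above all 3 controls. The difference over all complete sites was 1.05 points with all 6 libraries, and there too all 3 treated libraries lay above all 3 controls. Over all complete sites the controls had 86.7%, 87.9% and 88.0% and the treated libraries 88.3%, 88.5% and 88.9%. Without control replicate 1, the lowest library in the locus and over all complete sites, the locus difference was 1.03 points. The 1.05 points over all complete sites include that library, so the 2 values are not alike. By cluster, Pcdhg differed by 2.75 points, Pcdhb by 1.47 and Pcdha by -0.206. In Pcdha the groups overlapped, and without DM-aKG replicate 3 its difference was 0.371. Without control replicate 1 the Pcdhg difference was 1.45 points, and without DM-aKG replicate 3 that of Pcdhb was 0.742. With library means equalised over all complete sites, the differences were 1.70 points in Pcdhg, 0.421 in Pcdhb and -1.26 in Pcdha. Without control replicate 1 the Pcdhb difference was 0.982. Whether the clusters differ from one another in their response was not tested. Of the 36 gene starts 28 had higher and 8 lower values with DM-aKG, with a median difference of 1.82 points, while 62.0% of all 3987 genes were higher, with a median of 0.762. With equalised library means 23 of the 36 were higher.

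**Figure D4:**
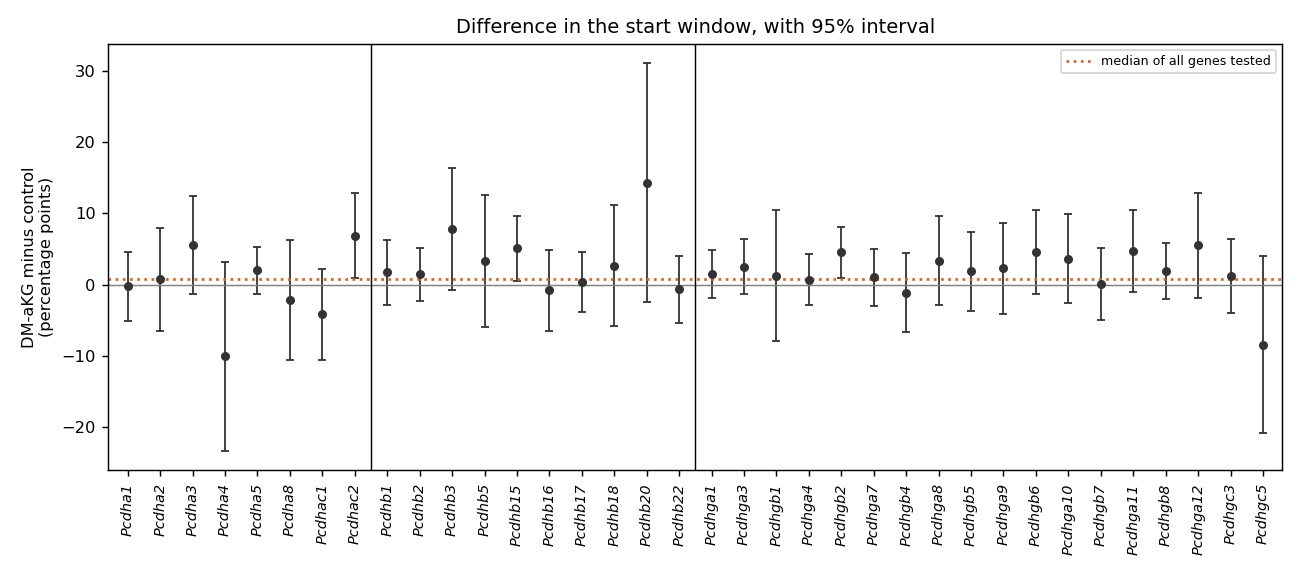
Difference in mean methylation level, DM-aKG minus control in percentage points, in the start window of each of the 36 tested genes in genome order, with the 95% interval from limma; the dotted line is the median of all genes tested. Most intervals include 0, and the differences run from -10.1 at Pcdha4 to 14.3 at Pcdhb20.

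The groups did not overlap in 7 of the 36 gene starts, 6 higher (16.7%, against 9.26% of all genes) and 1 lower with DM-aKG (2.78%, against 2.88%). At Pcdhgb2 the controls had 80%, 82.2% and 81.5% and the treated libraries 84.2%, 87.5% and 85.7% over 22 positions, a difference of 4.56 points (limma adjusted p = 0.760). At Pcdhb15 the controls had 83.4%, 82.6% and 80.2% and the treated libraries 84.8%, 86.6% and 90.2% over 5 positions, 5.13 points higher (limma adjusted p = 0.760). At Pcdhac2 the controls lay between 73.3% and 77.0% and the treated libraries between 77.3% and 86.0% over 3 positions, 6.89 points higher, while with every position that had 2 or more values per group the difference was -2.23. These were the 3 with an unadjusted p under 0.05.

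Among other starts with groups apart, Pcdha3 had 68.1%, 77.2% and 77.9% in the controls and 79.2%, 79.3% and 81.3% with DM-aKG. Without control replicate 1 its difference of 5.57 points was 2.41. Pcdhb3 had 62.8% ± 5.93 and 70.6% ± 4.14 over 3 positions, and its difference of 7.78 points was 4.39 without control replicate 1. Pcdhga11 had 72.4% ± 3.69 and 77.2% ± 2.60 over 45 positions, a difference of 4.77 points that was 2.68 without control replicate 1. Pcdhgc5 was the start that was lower with groups apart: the controls had 74.4%, 76.2% and 73.8%, and the treated libraries 72.8%, 54.0% and 72.4%. Its difference of -8.40 points was -2.20 without DM-aKG replicate 2.

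Pcdhb20 and Pcdha4, the starts with the single largest difference in each direction, had a wide spread among the controls. Pcdhb20 had 61.7%, 75.3% and 90.7% in the controls and 89.7%, 87.7% and 93.3% with DM-aKG over 3 positions, with overlapping groups. Its 14.3 points were 7.22 without control replicate 1 and 21.7 without control replicate 3. Pcdha4 had 94.4%, 86.6% and 74.4% in the controls and 71.2%, 81.8% and 72.2% with DM-aKG over 9 of 30 listed positions. Its difference was -10.1 points, -5.43 without control replicate 1 and -15.4 without control replicate 3. It was -1.97 with every position that had 2 or more values per group. Pcdhac1 had a difference of -4.18 points, or -1.61 without DM-aKG replicate 3. Pcdhga12 and Pcdhgb6 were 5.53 and 4.59 points higher, with overlapping groups. Their differences were 2.97 without control replicate 1 for Pcdhga12 and 2.45 for Pcdhgb6. At Pcdha5 the difference was 2.0 points. The lower values at Pcdha8 (-2.17), Pcdhb16 (-0.778), Pcdhb22 (-0.667) and Pcdhgb4 (-1.10) were 1.73, 1.39, 1.13 and 1.0 without control replicate 1. The adjusted p of every start in this paragraph and the one before was 0.760 or more by limma.

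Among the 42 windows of 10 kb, 32 had higher and 10 lower values with DM-aKG, against 65.7% higher over all windows. The groups did not overlap in 5 windows that were higher (11.9%, against 9.53% of all windows) and in 1 that was lower (2.39% of all windows). An unadjusted limma p under 0.05 was found in 4 of the 42, against 6.19% of all windows. The window with the smallest p, chr18:37220001-37230000 between Pcdha and Pcdhb, had 85.7%, 79.0% and 86.0% in the controls and 100%, 97.7% and 89.0% with DM-aKG, over 3 positions. The second, chr18:37690001-37700000, begins inside the start window of Pcdhgb2. Over 26 positions it had 79.5%, 80.4% and 80.3% in the controls and 83.8%, 86.5% and 83.6% with DM-aKG. These include the 22 complete positions of that start window, so the difference is not separate from the one at Pcdhgb2. In this 10 kb window the 4.59-point difference exceeded the spread within either group, with a limma adjusted p of 0.780. The next was the window of Pcdhac2, which rests on the same 3 positions as its start window. In the other direction the windows with the smallest p were those of Pcdha4, Pcdhgc5 and Pcdhac1, each resting on the complete positions of the start window already given.

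Single sites of the locus whose groups did not overlap numbered 51 higher (6.08%, against 4.63% of all sites) and 23 lower with DM-aKG (2.74%, against 2.50%). The largest difference among these was at position 37543726, between Pcdhb22 and Slc25a2, with 50%, 57% and 78% in the controls and 100% in all 3 treated libraries. Position 37543728 beside it had 50%, 71% and 78% against 100%, 100% and 100%. Position 37544075 in the same stretch had 71%, 62% and 40% against 100%, 90% and 77%. Position 37543870, which lies among these, went the other way, from 100% in all 3 controls to 67%, 89% and 83%. Among these picked sites the differences had both signs. The 10 kb window that holds them, chr18:37540001-37550000, had 74.2%, 84.1% and 79.7% in the controls and 85.2%, 86.0% and 86.1% with DM-aKG over 33 positions. Its groups did not overlap, and its difference of 6.44 points (limma adjusted p = 0.780) was 3.86 without control replicate 1. It was the fourth of the 4 windows with an unadjusted p under 0.05.

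Near gene starts, position 37690105, 246 bases after the start of Pcdhgb2, had 67%, 56% and 56% in the controls and 100%, 79% and 82% with DM-aKG. Position 36946536, 448 bases into Pcdha3, had 42% in each control and 60%, 58% and 80% with DM-aKG. Of the 5 lower sites picked for their size, the other 4 lay in Pcdhac1 and Pcdha1. Of all 23 lower sites 17 lay in start windows, which hold 642 of the 839 complete positions of the locus. These 17 were 2.65% of the start window positions, against 2.74% lower sites over the locus. By cluster they were 5 of 110 start window positions in Pcdha, 5 of 143 in Pcdhb and 7 of 389 in Pcdhg. Position 37090210, 74 bases after the start of Pcdhac1, had 100%, 71% and 50% in the controls and 40%, 45% and 47% with DM-aKG, and its difference of -29.7 points was -16.5 without control replicate 1. Position 37090378 of the same gene had 82.0% ± 5.57 (SD, n = 3) and 65.7% ± 12.1, and its difference of -16.3 points was -9.50 without DM-aKG replicate 3. Position 36932354, about 2 kb into Pcdha1, had 100%, 84% and 74% against 72%, 67% and 66%, and its difference of -17.7 points was -10.7 without control replicate 1. Position 36932370 beside it had 89%, 82% and 83% against 56%, 75% and 71%. In the main fit the limma adjusted p of these 10 sites lay at 0.698 or above. The opposite strands of a CpG differed by a mean of 9.0 points within a library over 358 pairs of the locus, and by 6.89 points over all 105028 pairs. The site differences above are between means of 3 libraries, so they are not on the scale of a single library. For means over libraries the strands differed by 4.07 points in the locus and 3.46 points over all pairs.

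Positions valued in some libraries only were more frequent in the locus than in the table. They numbered 529 of 1368 (38.7%), against 30.2% of all rows used, and were 44.0% of the positions in Pcdhg, 38.0% in Pcdha and 33.3% in Pcdhb. Their present values had a median of 60.2% in the locus, against 88.0% over all rows. The 185 positions with a value in 5 libraries and the 112 with 4 had medians of 60.2% and 56.0%, against 70.0% and 75% over all rows. The 83 positions with 3 values had a median of 55.0%, the 123 with 2 values one of 100%, and the 26 with 1 value one of 73.5%. Control replicate 1 had the fewest values. It had a value at 74.4% of the locus, and the other 5 libraries at 85.2% to 87.6%, whereas over all rows used the 6 libraries ranged from 83.7% to 88.6%. In Pcdhg control replicate 1 had a value at 69.0% of positions and the others at 83.3% to 85.5%.

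**Figure D5:**
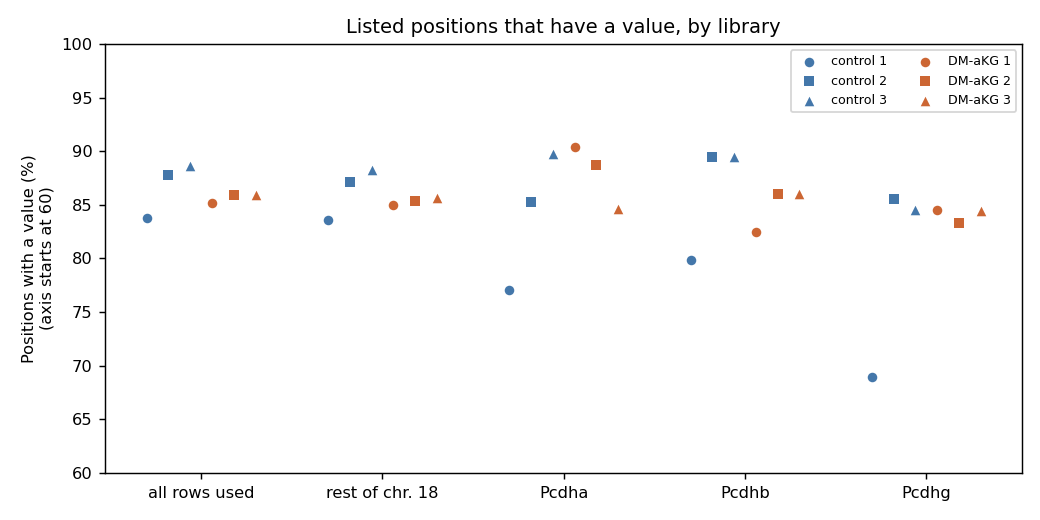
Percent of listed positions that have a value (axis from 60) in each library, over all rows used, the rest of chromosome 18 and the 3 clusters. Control replicate 1 lies at 69.0% in Pcdhg and 77.1% in Pcdha, below the other 5 libraries, and at 83.7% over all rows.

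Positions with more valued treated than control libraries made up 266 of the 529, and the reverse held for 173. Over all rows the shares were 41.4% and 44.3%, against 50.3% and 32.7% in the locus. Control replicate 1, with its missing values, moves with this count, and its part in the count was not tested. The pattern of a value in all 3 treated and in 0 control libraries occurred at 9 positions (0.658%, against 0.314% of all rows), 8 in Pcdhg and 1 in Pcdhac1. All of their values but 1 lay between 41% and 68%. Position 37090398 in Pcdhac1 had 60%, 42% and 49%, position 37685294, 57 bases into Pcdhga4, had 47%, 50% and 45%, and position 37751816 in Pcdhgb7 had 48%, 49% and 50%. The highest single value was 83% in DM-aKG replicate 3 at position 37756370 in Pcdhga11. The reverse pattern occurred at 2 positions (0.146%, against 0.459%), 37726180 and 37726191 in Pcdhga8, at 100% in each of the 3 controls. For each of these 11 positions, a level under 40% and no call in the other group cannot be told apart.

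Other genes linked to the clusters were mostly without a measured start window. Of 16 genes known to act on the clustered protocadherins, 10 lie on the chromosomes used and 1 had a start window value: Uhrf1, which recruits the maintenance methyltransferase, had 84.9% ± 5.67 among controls and 91.2% ± 1.97 among treated libraries (SD, n = 3 each) over 5 positions (limma adjusted p = 0.807). Its difference of 6.33 points was 3.10 without control replicate 3. None of the 9 non-clustered protocadherins on these chromosomes had a value. Of 49 other cadherin genes, 31 lie on the chromosomes used and 3 had values, with 0 called. Cdh7 had 68.9%, Cdh24 96.2% and Celsr1, an atypical cadherin of planar cell polarity that the naming rule did not pick, 88.6% over the 6 libraries. Of 15 other annotated genes in the locus 2 had values. These were Gm37013, whose start lies beside that of Pcdha4 and shares its 9 positions, and Diaph1, an actin-nucleating formin at the far end, taken at its low-coordinate end, with 89.1% over 15 positions.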

How the data were processed

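The authors' deposited table gives a percent of methylation per cytosine and library, rounded to whole numbers. The submitters' processing notes list CASAVA 1.8, Novoalign 3.08.02 and the build mm10. What each tool did, and how methylation was called, is not stated there. No coverage is given, so the read depth is unknown and no coverage minimum or counting interval could be used. Of 813850 rows the first 390208 were used, because an earlier analysis of these data found 4 libraries out of register with the coordinates after that row; this was not derived again. Positions count from 1: of 4491 listed positions inside RefSeq promoter sequences of GRCm38.p6 on the other chromosomes, 99.9% fell on a CpG read that way and 55.6% counted from 0. Gene spans came from RefSeq, GRCm38.p6, without exons. Starts used the strand of the promoter table. On chromosome 18, where that table gives none, the low-coordinate end was used. In Pcdha and Pcdhg this is the start, since transcription runs to the shared far end. The Pcdhb genes share no such end, and their low-coordinate end was taken as the start without a check of strand.

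Complete positions (a value in all 6 libraries) were averaged per library over the locus, over 10 kb windows (at least 3 positions) and over start windows from 1000 bases before to 3000 after every annotated gene's start (at least 3 positions). The test was limma (version 3.58.1, R 4.3.3) on untransformed percent for sites, windows and starts. No block was used, and p-values were adjusted by Benjamini-Hochberg over all features, at a threshold of 0.05. An earlier fit on log2 odds (offset 0.01) became an alternative because in that analysis's simulation it called more unchanged than changed sites, nearly all at exactly 100% in 1 group. The fits were tested on simulated data. Locus and cluster means carry no p. Members and gene lists were chosen with earlier results of these data known. Named were, by rule, the 3 highest, 3 lowest and 3 most changed starts in each direction per cluster, the C-type isoforms, for each direction the 3 windows of lowest p, the runs with the lowest level, and, of sites with groups apart, the 5 most changed each way. Other lists give up to 2 genes each; others are named as noted. Libraries are labelled biological replicates, with nothing on separate animals or cultures, so p-values measure the spread between these libraries. Alternatives are given in the closing section. No sequence of the locus is reported here.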

Additional observations from a re-analysis of the deposited data

How the results depend on the processing

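No alternative gave a call among the sites, windows or gene starts of the locus. Over the whole table the count of sites called was 407 with log2 odds and ranged from 0 to 9 with single libraries left out. The single 10 kb window called was 0 with log2 odds, robust variance with a trend, a replicate block or at least 5 sites, and 0 to 0 with single libraries left out. The count of gene starts called was 1 with at least 1 site. The replicate numbers did not pair the libraries (correlations of same-numbered deviations 0.0688, -0.0272 and 0.0569), and the replicate block changed no other call. The locus difference ranged from 1.03 to 2.47 points with single libraries left out and from 0.903 to 2.25 under the other alternatives. Counting each 0 as a level gave a difference of 2.49 points in Pcdha and -1.08 in Pcdhb; Pcdha was at -1.26 with library means equalised and ranged from -0.872 to 0.371 with single libraries left out. The difference between the locus and the rest of chromosome 18 was -11.4 points with 2 or more values per group and -11.0 with each 0 as a level, and that between the first 500 and the 1000 to 1500 bases -15.0 and -22.5, against -12.5. Of 45 differences at named starts, windows and sites 13 changed sign under some alternative. With library means equalised Pcdha2 was at -0.289, Pcdhga4 at -0.360 and Pcdhga7 at -0.0135. With 2 or more values per group Pcdha1 was at 0.268, Pcdhac2 at -2.23, Pcdhgc3 at -4.53, Cdh24 at 0.424 and Diaph1 at 0.753. With single libraries left out, Pcdha1 ranged from -1.71 to 1.03, Pcdha2 from -1.88 to 2.83, Pcdha8 from -4.30 to 1.73, Pcdhb16 from -2.11 to 1.39, Pcdhb22 from -1.87 to 1.13, Pcdhga4 from -0.0952 to 1.8, Pcdhga7 from -0.130 to 1.81, Pcdhga9 from -0.128 to 4.04, Pcdhgb4 from -3.0 to 1.0, Pcdhgc3 from -0.389 to 3.11, Cdh24 from -0.930 to 0.439 and Diaph1 from -0.844 to 0.756. The causes were not tested. Unknown read depth and 3 libraries per group limit every level given.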
